A study of Mus musculus with 57 samples.

Results

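Txnip, its arrestin relatives Arrdc3 and Arrdc4, the transcription factors Foxo1 and Foxo3, and 5 genes known as targets or partners of FOXO and PI3K signalling (Ddit4, Sesn3, Pik3ip1, Bcl6 and Ccng2) were followed through the mouse bone marrow. Members were the rows of the count table that have an Ensembl gene identifier and one of these names, 10 of 56332 genes, and each name matched 1 row. The 10 genes were chosen with their levels in the 7 populations and both antibody groups already known. Their levels and differences are therefore given as a description. Where counts of members past a threshold are printed, they stand beside the share of all genes and nothing is read from them, and tests are reported as results only for other genes of the same pathways.

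Bone marrow came from male C57BL/6 mice, 8 weeks old, that had a control antibody or anti-PAPP-A for 4 weeks. PAPP-A (pregnancy-associated plasma protein A) is a secreted metalloprotease that cuts IGF-binding proteins and so frees insulin-like growth factors. Each of the 57 libraries is 1 population of 1 mouse pool, and the number of mice in a pool is not given in the sources used here. The populations were mesenchymal stromal cells (MSC, 6 control and 4 treated libraries), hematopoietic stem cells (HSC, 3 and 4), common lymphoid progenitors (CLP, 4 and 4), granulocyte-macrophage progenitors (GMP, 4 and 4), megakaryocyte-erythroid progenitors (MEP, 4 and 4), Myeloid cells (6 and 6), and unsorted whole bone marrow (WBM, 4 control only). The labels name 3 batches: HSC, CLP, GMP and MEP are of batch A only, MSC of A and C, and Myeloid of B and C.

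Alpha-arrestins are adaptors that bring NEDD4-type ubiquitin ligases to membrane proteins. Txnip, thioredoxin-interacting protein, binds thioredoxin and draws glucose transporters away from the cell surface, and its transcription is driven by the glucose-sensing factors MondoA and ChREBP. FOXO factors are held in the cytoplasm by AKT while insulin or IGF signals through PI3K, and in the nucleus they switch on genes that restrain growth, several of which act back on PI3K and mTORC1. In the marrow, FOXO factors are known for keeping stem cells quiescent and Foxo1 for the early B lineage.

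The 250 bases upstream of the RefSeq start are shown for Txnip and Arrdc4, the members with the largest fitted log2 difference between antibody groups (Txnip, in MSC) and between populations (Arrdc4), from the RefSeq promoter table of build GRCm38.p6. Both are printed 5′ to 3′ on the gene's own strand, with matches to the searched motifs in capitals. Txnip lies at chr3:96557957-96561883 on the plus strand and its window at chr3:96557707-96557956, and Arrdc4 lies at chr7:68736995-68749241 on the minus strand and its window at chr7:68749239-68749488.
Txnip: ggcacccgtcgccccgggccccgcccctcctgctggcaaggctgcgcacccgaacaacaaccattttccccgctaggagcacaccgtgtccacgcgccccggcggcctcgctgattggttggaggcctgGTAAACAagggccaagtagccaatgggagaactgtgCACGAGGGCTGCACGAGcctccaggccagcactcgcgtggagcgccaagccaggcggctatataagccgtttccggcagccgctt
Arrdc4: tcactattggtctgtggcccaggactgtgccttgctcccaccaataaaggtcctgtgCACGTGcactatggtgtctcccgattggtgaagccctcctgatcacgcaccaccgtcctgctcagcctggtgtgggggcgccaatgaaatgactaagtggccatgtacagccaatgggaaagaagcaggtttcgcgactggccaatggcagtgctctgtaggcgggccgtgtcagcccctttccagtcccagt

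Motifs were searched on both strands. The FOXO element GTAAACA was found in the Txnip window, from base -121 to -115 before the start, and in the window of no other member. Of all 32851 promoters of that length, 3.17% hold it. A CACGNG pair with 5 bases between its copies was also found in the Txnip window, from base -85 to -69. This pair is the arrangement through which MondoA and ChREBP are known to bind, and 24 of all promoters (0.07%) hold it. The palindromic E-box CACGTG was found in Arrdc4, from base -193 to -188, and in Bcl6, from base -60 to -55, and 6.02% of all promoters hold it. A match describes the letters only.

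Total counts ran from 107412 to 125537299 per library with a median of 10376654. The 4 shallowest libraries were HSC treated pool 6 (107412), MSC control pool 7 (321860), MSC treated pool 8 (499300) and CLP control pool 5 (587316). Control HSC libraries had 8023673, 8331468 and 9023967 counts, and treated ones 107412, 2634243, 4023940 and 8296259. Apart from leaving out the shallowest library, the part of depth in HSC differences was not tested. The 8 stromal markers summed to 38860 to 72440 CPM (counts scaled to a common library size) in MSC libraries and to at most 731.9 elsewhere, and the 7 stem cell markers to 448.1 to 869.9 in HSC and at most 64.85 elsewhere. The neutrophil list summed to 132300 to 210000 CPM in Myeloid libraries. CLP libraries were mixed by these lists: the lymphoid progenitor list summed to 2142 to 3161 CPM, but the granulocyte-monocyte progenitor list to 2956 to 10750 and B-cell markers to 1512 to 8141, and neutrophil markers reached 8660 in pool 1 and 8374 in pool 2. The part of these in CLP values was not tested. B-cell markers stood apart in 2 shallow MSC libraries, at 106700 CPM in control pool 7 and 27390 in treated pool 8, against 38.68 to 1129 in the other 8. Levels are CPM scaled by TMM over all 57 libraries, given as mean ± SD over pools. In bulk RNA, fewer cells of a type and less RNA per cell cannot be told apart.

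Txnip was present in every population. In stroma it was the 1 member of 10 whose treated and control libraries did not overlap, beside 0.888% of all genes tested. In control mice Txnip was highest in MSC (428.9 ± 65.1 CPM, n = 6), HSC (357.3 ± 8.81, n = 3) and Myeloid cells (347.3 ± 115, n = 6), whose ranges overlapped. Myeloid controls held 353.9 to 564 CPM in batch B and 253.4 to 294.4 in batch C. Only those of batch B reached the MSC and HSC ranges. Unsorted marrow had 254.1 ± 28.2 (n = 4). Below it, without overlap, came MEP (171.9 ± 22.1, n = 4) and CLP (128.3 ± 14, n = 4), and below those GMP (85.42 ± 9.88, n = 4). The highest mean was 5.02 times the lowest.

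Control MSC libraries held from 357.2 to 530.5 CPM of Txnip, with a median of 415. The 4 MSC libraries of mice given anti-PAPP-A held 720.2, 758.3, 820.7 and 913.8 CPM, a mean of 803.2 ± 84.5. All treated MSC libraries were thus above all control ones, and the mean was 1.87 times as high. The fitted log2 difference was 0.90 (SE 0.17), and its adjusted p in the edgeR fit was not under 0.05. The 3 batch A controls averaged 462 CPM against 720.2 in the lone treated library of that batch. The batch C means were 395.7 and 830.9, with 3 libraries each. Without the 2 shallow, B-cell-rich libraries the means were 418.9 (n = 5, up to 530.5) and 830.9 (n = 3, from 758.3), and the log2 difference was 1.03 (SE 0.16).

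Within batch C, the summed neutrophil list and the summed monocyte and macrophage list were higher in treated than in control MSC, together with Txnip. The neutrophil list summed there to 914.8 to 1400 CPM in controls and 1506 to 1731 in treated libraries, and the monocyte and macrophage list to 1854 to 2481 and 2860 to 3551, neither with overlap. In batch A the treated library had 10850 CPM of the neutrophil list against 2040 to 6360 in controls. Its monocyte and macrophage list had 4385 against 2106 to 4653. Over both batches, the stromal list (8 of 8 detected) summed to 38860 to 66340 CPM in controls and 45790 to 72440 in treated libraries, the monocyte and macrophage list (7 of 7) to 1854 to 4653 and 2860 to 4385, and the neutrophil list (7 of 7) to 914.8 to 6360 and 1506 to 10850. Vcam1 is in both the stromal list and the monocyte and macrophage list, so the latter's sum in MSC cannot be read as monocyte content alone. The part of these lists in the Txnip difference was not tested. The antisense gene Gm15441 overlaps Txnip on the other strand, and whether counting used strand is not given in the sources used here. It had 0.5762 CPM in control and 0.263 in treated MSC, at most 37 counts in a library.

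Treated and control libraries overlapped for Txnip in all other sorted populations. Treated HSC had 236.2, 328.4, 333.2 and 420.3 CPM, the last from a library with 69 Txnip counts, around the control values of 347.3, 360.9 and 363.8. Treated means were 125.9 ± 6.24 (CLP), 78.33 ± 9.84 (GMP), 171.9 ± 46.7 (MEP) and 323.2 ± 72.8 (Myeloid). The log2 differences in these 5 populations lay between -0.09 and -0.0016.

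**Figure D1:**
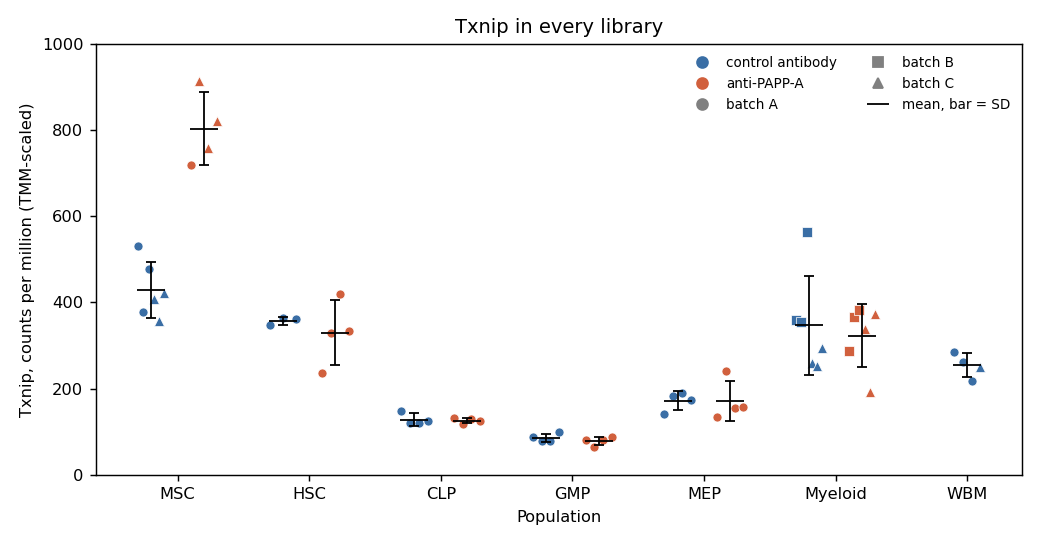
Txnip in CPM (vertical axis) for every library, by population (horizontal axis), antibody group (colour) and batch (shape), with the mean and SD in black. The 4 treated MSC libraries sit between 720.2 and 913.8, above the control MSC range of 357.2 to 530.5, while the groups overlap in the other populations.

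Arrdc4, a close relative of Txnip that shares its regulation by glucose, was a stromal gene here. MSC controls had 364.3 to 779.3 CPM (median 652.8, mean 625 ± 154), and no other control library exceeded 35.48. HSC followed with 28.33, 29.04 and 35.48 CPM (30.95 ± 3.94), a mean 20.2 times below that of MSC, and then Myeloid cells with 22.45 ± 8.6. GMP had 6.047 ± 0.313 and CLP 5.053 ± 3.37, so that MSC exceeded CLP 124 times. Per kilobase of exon, the mean level of Arrdc4 in MSC (154.7 CPM per kb) was near that of Txnip (137.3), whereas in GMP Arrdc4 had 1.497 and Txnip 27.35. Treated MSC had 495.2, 635.2, 705.7 and 729.8 CPM, all inside the control range (log2 difference -0.08, SE 0.19).

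Arrdc3, an adaptor for the degradation of membrane receptors, varied least among populations, with a highest mean 3.45 times the lowest. Myeloid cells had 32.51 to 86.76 CPM (median 76.16, mean 69.79 ± 19.6). The other sorted populations averaged from 20.24 (GMP) to 30.5 (HSC), and every pair of neighbours in this order overlapped. WBM held 30.88, 31.83 and 34.45 CPM in batch A and 95.11 in its only batch C library. Treated MSC had 28.87, 32.8, 41.85 and 42.21 CPM against 17.94 to 52.04 in controls (log2 difference 0.52, SE 0.30), and treated GMP 12.45, 12.66, 14.4 and 16.61 against 12.71, 17, 20.12 and 31.12 (-0.50, SE 0.25). Both pairs of groups overlapped.

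Foxo1 and Foxo3 were highest in different populations. Foxo1, the FOXO factor needed for early B cells, was highest in CLP (54.29, 71, 75.67 and 105.2 CPM, mean 76.54 ± 21.2) and MSC (47.17 to 100.8, median 72.12, mean 73.37 ± 20), which overlapped. HSC had 21.85 ± 4.69, MEP 12.15 ± 2.85, Myeloid cells 8.841 ± 2.53 and GMP 5.564 ± 0.662, a span of 13.8 times. Foxo3, the FOXO factor best known for stem cell maintenance, had its highest means in MEP (60.67, 71.93, 83.81 and 90.67, mean 76.77 ± 13.2) and HSC (46.16, 76.93 and 85.56, mean 69.55 ± 20.7), again with overlap. Myeloid cells averaged 51.49 ± 37.9, from 79.36 in batch B, above both, and 23.61 in batch C. GMP had 37.98 ± 12.6. Foxo3 was lowest in WBM (21.05 ± 3.97), CLP (28.15 ± 10.7) and MSC (28.44 ± 14.3). The 2 factors' mean log2 levels over the 13 groups of population and treatment correlated at r = -0.64, a description over groups that share pools and batches.

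For both factors the antibody groups overlapped in every sorted population. Foxo3 in treated HSC was 21.67, 31.99, 48.73 and 59.65 CPM, a mean of 40.51 ± 16.9, and the groups overlapped because the lowest control had 46.16. Its log2 difference was -0.77 (SE 0.29), and -0.80 (SE 0.32) without the shallow library, which held 8 Foxo3 counts. In the other populations Foxo3 differed by -0.43 to 0.15 on the log2 scale. Foxo1 differed most in Myeloid cells, 0.48 (SE 0.28), with 6.161 to 13.46 CPM in controls and 6.074 to 17.28 in treated libraries. Gm38034, which overlaps Foxo1 on the same strand, ranged from 2.855 to 31.83 CPM in control CLP, so reads shared by the 2 genes cannot be assigned with certainty.

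Ddit4, Sesn3 and Pik3ip1 are brakes on growth signalling: Ddit4 (REDD1) and the sestrin Sesn3 lower mTORC1 activity, and Pik3ip1 inhibits PI3K itself. Sesn3 and Pik3ip1 had their highest control mean in HSC. Pik3ip1 had 60.69, 71.96 and 83.84 CPM in HSC (72.16 ± 11.6), overlapping GMP (64.6 ± 11.3) and CLP (52.99 ± 14.6). A gap without overlap separated these from MEP (20.19 ± 6.02), MSC (20 ± 4.17) and WBM (15.52 ± 2.68), and a further one from Myeloid cells (2.564 to 7.545, mean 5.18 ± 1.91), 13.9 times below HSC. Sesn3 had 28.63, 40.82 and 43.44 CPM in HSC (37.63 ± 7.9) and 28.63 ± 15 in MSC, and was lowest in Myeloid cells (7.152 ± 1.64).

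Ddit4 differed between batches more than any other member. Control MSC libraries held 8.444, 15.61 and 20.61 CPM in batch A and 70.89, 73.02 and 123.7 in batch C, means of 14.89 and 89.2 that differ 5.99 times. The treated MSC libraries were alike, with 8.719 in batch A and 51.1, 67.15 and 207.6 in batch C. In Myeloid controls it was batch C that was low, with 2.572, 3.811 and 8.733 against 10.85, 28.12 and 51.42 in batch B. Batches A and C did not overlap in MSC, nor B and C in Myeloid. Foxo3 shared the Myeloid difference, with 39.07, 97.82 and 101.2 CPM in batch B controls and 16.81, 25.43 and 28.6 in batch C. Txnip controls were also higher in batch B (353.9 to 564 CPM) than in batch C (253.4 to 294.4). So were those of Pik3ip1 (5.876 to 7.545 and 2.564 to 5.241). Over all Myeloid libraries, the granulocyte-monocyte progenitor list also summed higher in batch B (5933 to 17560 CPM) than in batch C (1306 to 3169). The part of that list in these differences was not tested. Within batch A, Ddit4 was highest in HSC (27.28, 35.12 and 52.68 CPM) and MEP (24.28 to 29.97) and lowest in WBM (7.355 to 11.55), CLP (7.073 to 16.42) and the MSC libraries.

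**Figure D2:**
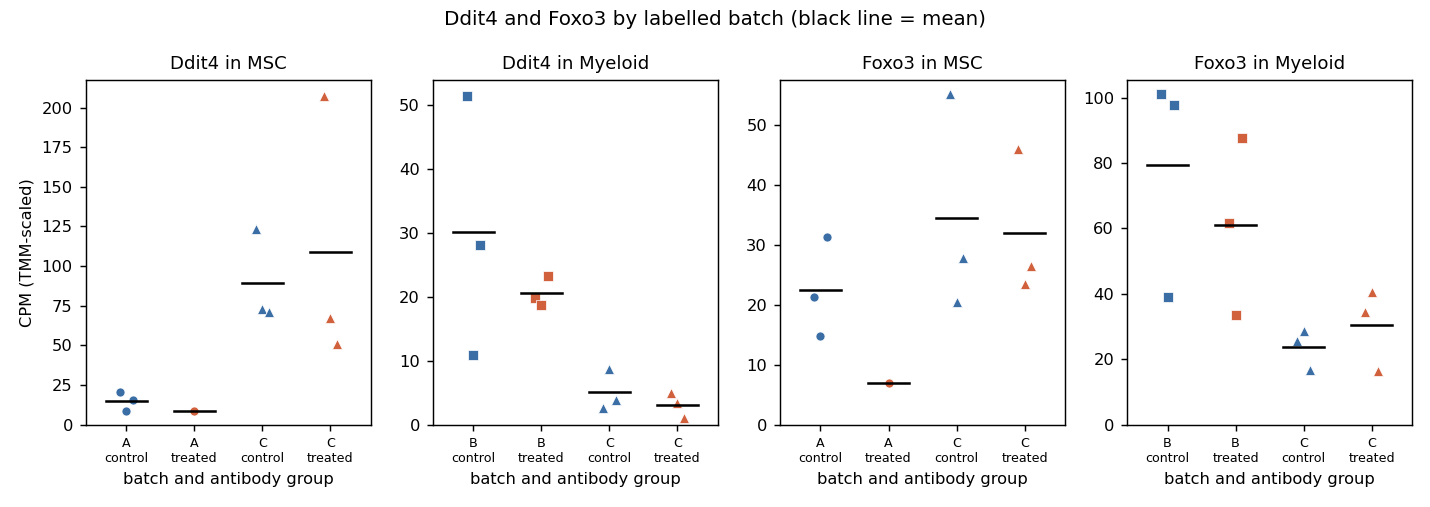
Ddit4 and Foxo3 in CPM (vertical axes, each with its own scale) in MSC and Myeloid libraries by labelled batch and antibody group (horizontal axes), with means as black lines. Ddit4 in control MSC averaged 14.89 in batch A and 89.2 in batch C, and in control Myeloid cells 30.13 in batch B and 5.039 in batch C.

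In HSC all 3 brakes had a lower mean in mice given anti-PAPP-A, with overlapping groups. Ddit4 in treated HSC was 6.092 (1 count in the shallow library), 15.9, 21.39 and 32.68 CPM, mean 19.02 ± 11.1, against 38.36 ± 13 in controls. Its log2 difference was -0.69 (SE 0.29), and that of Sesn3 was -0.62 (SE 0.31), with 11.67, 17.82, 36.55 and 36.78 CPM in treated libraries. Pik3ip1 differed by -0.22 (SE 0.22). The 7 stem cell markers, none at 0, summed to 687.7 to 869.9 CPM in control and 448.1 to 726.9 in treated HSC. Most treated HSC libraries were also shallower than every control, with 107412, 2634243 and 4023940 counts in pools 6, 4 and 2. The part of the markers and of depth in these differences was not tested. In MEP, Ddit4 had 16.29, 20.45, 22.07 and 28.02 CPM in treated and 24.28, 27.54, 29.05 and 29.97 in control libraries (-0.35, SE 0.16), again with overlap.

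Bcl6, a transcriptional repressor of germinal centre B cells and macrophages that FOXO factors induce, was a gene of Myeloid cells and stroma. Myeloid controls had 73.11 to 170.7 CPM (median 95.53, mean 107.5 ± 35.4) and MSC 20.82 to 106.9 (median 59.65, mean 60.16 ± 30.1). WBM had 43.79 ± 7.61, and no control library of HSC, CLP, GMP or MEP exceeded 10.82. MEP, at 3.5 ± 0.906, lay 30.7 times below Myeloid cells. Ccng2, an unconventional cyclin linked to cell cycle exit, had the same leader, with 84.7 to 203.7 CPM in Myeloid controls (median 145, mean 145.9 ± 41), then 80.72 ± 18 in WBM. It was tight in HSC (46.79, 46.87 and 48.6), GMP (37.44 to 39.84) and MEP (23.79 to 34.72), which did not overlap one another. In treated MSC, Ccng2 had 67.98, 71.49, 76.92 and 117.1 CPM against 34.05 to 72.03 in controls (log2 difference 0.46, SE 0.25), and Bcl6 59.29, 67.95, 91.14 and 99.8 (0.39, SE 0.30). Both overlapped.

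**Figure D3:**
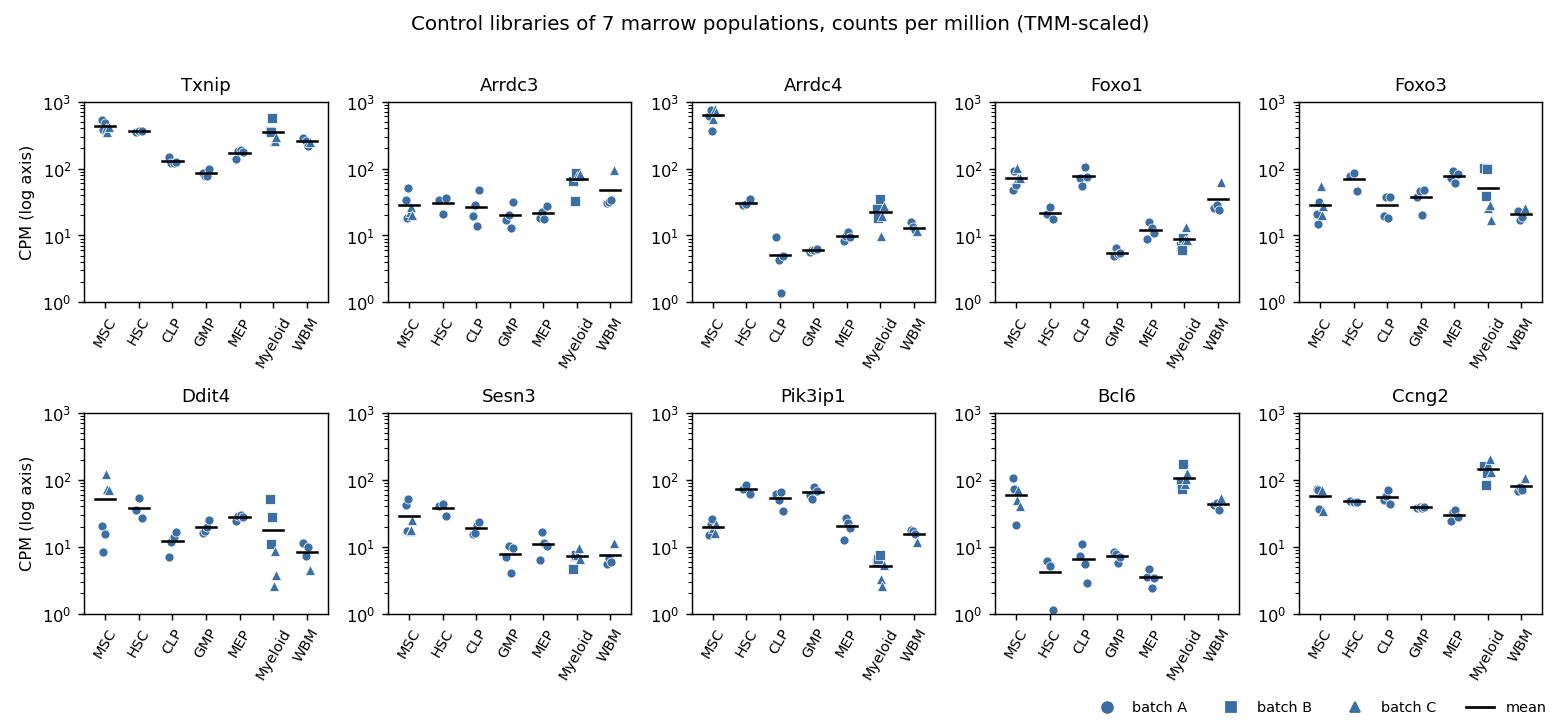
CPM on a log axis (vertical) in every control library of the 7 populations (horizontal), 1 panel per gene, with batch as shape and the mean as a black line. Arrdc4 stands 124 times higher in MSC than in CLP, Foxo1 peaks in CLP and MSC, and Bcl6 and Ccng2 in Myeloid cells.

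Set against the other sorted populations, 8 of 10 members lay above 0 on the log2 scale in MSC and 7 in HSC. There were 4 in Myeloid cells, 3 in GMP and 2 each in CLP and MEP. Of all 19721 genes tested, 10392 lay above 0 in MSC, 10668 in HSC, 8940 in Myeloid cells, 9883 in GMP, 10628 in CLP and 9447 in MEP. Each sorted population's controls were set against the mean of the other 5 with edgeR's quasi-likelihood test and a batch term, and a gene was called at a Benjamini-Hochberg adjusted p under 0.05 over all 19721 genes tested. All 10 members passed the low-count filter. Since the members were chosen on these levels, the counts are a description from which nothing is read. In MSC 5 members were called higher (Txnip, Arrdc4, Foxo1, Sesn3 and Bcl6) where 29.2% of all genes were, and 0 lower where 21.2% were. In HSC 5 were called higher (Txnip, Foxo3, Ddit4, Sesn3 and Pik3ip1) against 13% of all genes, and Bcl6 lower against 6.88%. CLP had 2 higher (Foxo1 and Pik3ip1) against 6.4% and 3 lower (Txnip, Arrdc4 and Bcl6) against 4.55%.

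GMP had 1 member called higher, Pik3ip1, against 13.3% of all genes, and 7 lower against 9.38% (all others except Foxo3 and Ddit4). MEP had 2 higher (Foxo3 and Ddit4) against 15.6% and 6 lower against 12.7% (Txnip, Arrdc4, Foxo1, Sesn3, Bcl6 and Ccng2). Myeloid cells had 4 higher (Txnip, Arrdc3, Bcl6 and Ccng2) against 16.3% and 4 lower (Foxo1, Foxo3, Ddit4 and Pik3ip1) against 20.9%. The step between batches A and C comes from MSC libraries alone, and each contrast rests on it through the Myeloid term. Without the batch term, Ddit4 and Foxo3 were no longer called in Myeloid cells, where Ddit4 went from -4.47 to -0.65 on the log2 scale and Foxo3 from -1.45 to 0.17, and Sesn3 was called lower. Ddit4 and Foxo3 also lost their call in HSC, Ddit4, Txnip and Sesn3 in MEP, Bcl6 in CLP and Arrdc3 in GMP, while in MSC Ddit4 was called higher and Pik3ip1 lower.

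The members were also chosen with these treatment differences known, so the counts that follow are a description and nothing is read from them. Under anti-PAPP-A, 0 of the 10 members were called in any of the 6 sorted populations by edgeR. The share of all genes called was 0.0313% in MSC (5 of 15984), 0.0069% in HSC (1 of 14494) and 0% in the other 4. At an unadjusted p under 0.05, edgeR had 1 member in MSC, 2 in HSC, 1 in MEP and 0 in the other 3 populations. Among all genes tested, that p was reached by 676 of 15984 in MSC, 1156 of 14494 in HSC and 444 of 13307 in MEP. It was reached by 29 of 12520 in CLP, 195 of 15334 in GMP and 437 of 16803 in Myeloid cells. DESeq2 called 1 member in MSC, where it called 43 of all genes, and 0 elsewhere. Groups did not overlap for 1 of 10 members in MSC, Txnip, where 0.888% of all genes tested did not, and for 0 members in the other populations, where the share of all genes was 6.97% (HSC), 0.583% (CLP), 1.34% (GMP), 2.17% (MEP) and 0.0714% (Myeloid). The median log2 difference of the members was 0.29 in MSC with 7 of 10 above 0, beside -0.03 over all genes tested. It was -0.14 in HSC with 2 of 10 above 0, beside 0.00 over all genes. Of all genes tested, 7551 of 15984 were above 0 in MSC and 7243 of 14494 in HSC. In the edgeR fit for treatment differences that vary among the 6 populations, 0.0511% of 21525 genes were called and 0 members. An unadjusted p under 0.05 was found there for 1 member and for 1395 of the 21525 genes.

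**Figure D4:**
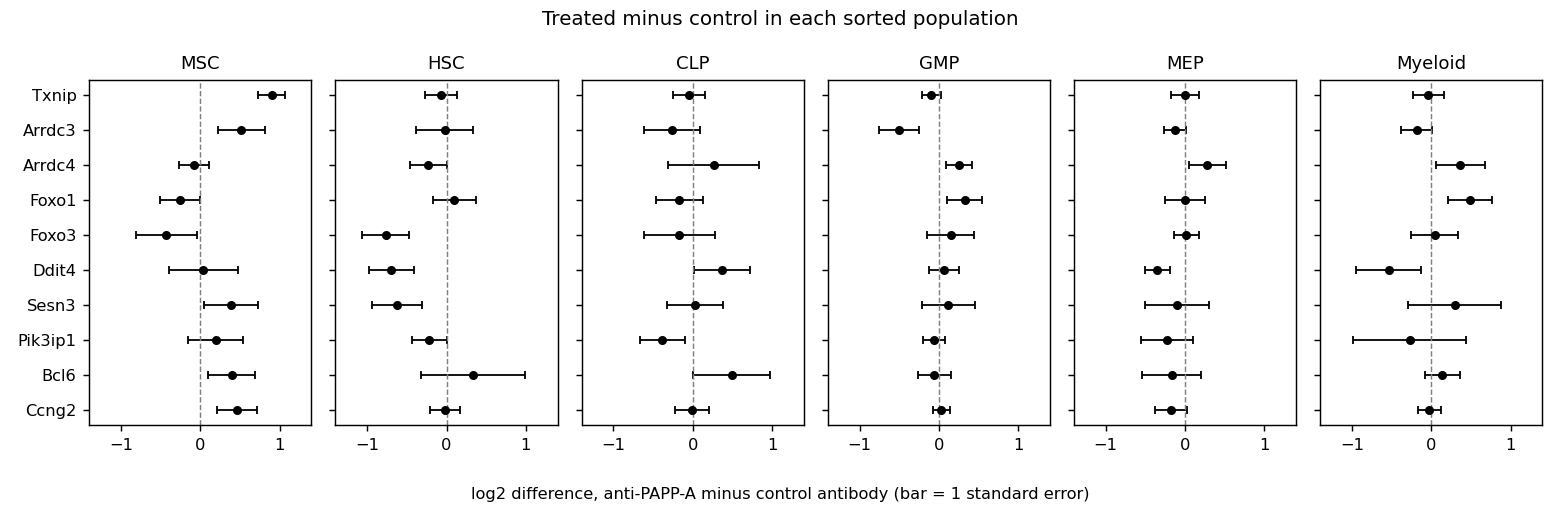
Log2 difference of each gene between treated and control libraries (horizontal axis, bars are 1 standard error) in each sorted population, with the genes on the vertical axis. Txnip in MSC lies at 0.90 and Foxo3, Ddit4 and Sesn3 in HSC between -0.77 and -0.62, while Txnip lies near 0 in the other 5 populations.

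Other genes of these pathways were tested, from lists of known function chosen with earlier results of these data known. By edgeR, 0 listed genes were called under anti-PAPP-A in any population, among 94 to 98 tested in each. At an unadjusted p under 0.05 there were 6 (MSC), 7 (HSC), 1 (CLP), 2 (GMP), 5 (MEP) and 2 (Myeloid). Over all genes tested there were 676 of 15984 (MSC), 1156 of 14494 (HSC) and 29 of 12520 (CLP). For GMP, MEP and Myeloid cells the counts over all genes were 195 of 15334, 444 of 13307 and 437 of 16803. DESeq2 called 1 listed gene, Klf2 in MEP, where it called 12 of all genes. In MSC the smallest p of the other FOXO target list was that of Pdk4, a kinase that blocks glucose oxidation, at 54.82 ± 15.2 CPM without and 107.3 ± 38.1 with anti-PAPP-A (log2 difference 0.85, SE 0.26, adjusted p = 0.795). The glucose-sensing list had a median log2 difference of 0.17 in MSC with 8 of 12 genes above 0, of -0.21 in HSC with 2 of 12, and of -0.29 in Myeloid cells with 3 of 12, beside -0.03, 0.00 and -0.03 over all genes tested. The list of other arrestins, thioredoxins and NEDD4 ligases had 0 of 13 genes above 0 in Myeloid cells, with a median of -0.10. Its smallest p there was that of Wwp2 (adjusted p = 0.995 by edgeR). Of all genes tested, 7551 of 15984 were above 0 in MSC, 7243 of 14494 in HSC and 7866 of 16803 in Myeloid cells.

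In HSC the PI3K, AKT and insulin/IGF receptor list had a median log2 difference of -0.27 with 3 of 26 genes above 0. Over all genes tested the median was 0.00, with 7243 of 14494 above 0. Most treated HSC libraries were shallower than the controls, and the part of depth was not tested. The smallest p of the PI3K list was that of Rictor, a subunit of mTORC2 (-0.71, SE 0.25, adjusted p = 0.61). In MEP, Klf2, a FOXO target of quiescent lymphocytes and endothelium, had 102.8 ± 29.4 CPM in controls (75.97 to 141.9) and 49.7 ± 9.25 after treatment (41.9 to 62.57), which did not overlap. Its log2 difference was -1.05 (SE 0.19), with an edgeR adjusted p of 0.658 and a DESeq2 adjusted p of 0.000571. In Myeloid cells, Fbxo32, an atrophy-linked ubiquitin ligase, gave 2.10 (SE 0.69, adjusted p = 0.995) from a control level of 1.07 CPM.

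Among control populations, list genes were called in both directions. In MSC, where 29.2% of all genes were called higher and 21.2% lower, 12 of 28 tested genes of the PI3K list were higher and 9 lower. Irs1, an insulin and IGF receptor adaptor, had 115 ± 24.8 CPM in MSC and at most 0.17 on average in other sorted populations (adjusted p = 1.08e-19). The leukocyte kinase subunit Pik3cd (log2 difference -4.86, SE 0.31, adjusted p = 1.46e-13) and the phosphatase Inpp5d (-4.46, SE 0.34, adjusted p = 9.76e-12) were lower. The other FOXO targets split 7 higher and 7 lower of 27, with S1pr1 and Pdk4 among those higher.

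Relatives of the members in MSC were Arrdc2, higher with 31.09 ± 13.5 CPM (adjusted p = 1.6e-08), and Ddit4l, at 43.86 ± 20.7 CPM against at most 0.78 on average in other sorted populations (adjusted p = 2.94e-13). Of the glucocorticoid-induced genes, among which Txnip and Ddit4 are often counted, 6 of 9 were higher and 0 lower. The shares of all genes in MSC were 29.2% and 21.2%. Those higher included Errfi1, a feedback inhibitor of EGF receptors, with 599 ± 323 CPM (adjusted p = 4.42e-19), and Mt2, a metallothionein, with 679.1 ± 796 (adjusted p = 3.18e-13). The part of glucocorticoids in the members' levels was not tested. Of the glucose-sensing list, Mlxipl, which encodes ChREBP, was higher (log2 difference 1.48, SE 0.40, adjusted p = 0.00282) and 5 of 13 were lower, first the hexokinase Hk3 (-3.77, SE 0.40, adjusted p = 7.87e-09) and the fatty acid synthase Fasn (-1.63, SE 0.25, adjusted p = 2.84e-06).

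In HSC, 3 of 28 PI3K list genes were higher and 0 lower, beside 13% and 6.88% of all genes, among them the AKT phosphatase Phlpp1 (1.51, SE 0.41, adjusted p = 0.00952). The other FOXO targets included Gabarapl1, an autophagy gene (186.7 ± 21.1 CPM, adjusted p = 1.84e-06), and Tnfsf10, which encodes TRAIL (33.49 ± 5.27 CPM, adjusted p = 0.000309), with 6 higher and 5 lower of 27. Sesn1, the p53-induced relative of Sesn3, was also higher in HSC (0.85, SE 0.25, adjusted p = 0.0179). In CLP, the lymphoid FOXO target Rag1 (94.64 ± 31.1 CPM, adjusted p = 3.44e-08) was higher, and the receptors Igf1r (-1.10, SE 0.18, adjusted p = 0.00021) and Insr (-1.04, SE 0.21, adjusted p = 0.0014) lower.

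In MEP, the antioxidant FOXO target Prdx3 was higher (158 ± 21.3 CPM, adjusted p = 6.4e-07). So was Pklr of the glucose-sensing list, which encodes the red cell pyruvate kinase (238 ± 62.9 CPM, adjusted p = 7.91e-07). In GMP, 7 of 28 PI3K list genes were lower and 1 higher, beside 9.38% and 13.3% of all genes, and Slc2a3, which encodes the glucose transporter GLUT3, was lower (15.65 ± 2.5 CPM, adjusted p = 6.72e-08). In Myeloid cells Slc2a3 was higher (841.7 ± 320 CPM, adjusted p = 2.15e-07).

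Some pairs of members ran together over the groups and others did not. Over the 13 group means, 26 of the 45 pairs of members correlated positively, and over deviations of the 57 libraries from their group means 31 did, with a median r of 0.09. Both are descriptions, since groups share pools and the deviations still hold the batch steps. The closest pairs over group means were Arrdc3 with Ccng2 (r = 0.90), Bcl6 with Ccng2 (r = 0.90) and Txnip with Arrdc4 (r = 0.84). Within groups, Foxo3 with Ddit4 came first (r = 0.67), then Foxo1 with Ccng2 (r = 0.57) and Txnip with Arrdc4 (r = 0.51).

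Among 15352 genes with a mean of at least 1 CPM, the pattern most like Txnip over the 13 group means of log2(CPM + 1) was that of Crebrf (r = 0.96), followed by D5Ertd579e and Ttc39b (both r = 0.95). Crebrf averaged 54.12 CPM in control MSC, 42.13 in Myeloid cells, 34.28 in HSC and 8.78 in GMP. Arrdc3 was most like Trim12c (r = 0.98), and Arrdc4 like Nupr1 and Dcbld2 (both r = 0.99), with Nupr1 at 280.5 CPM in MSC and 0.136 in GMP. Foxo1 was nearest to Tcf4 (r = 0.96) and Epha2 (r = 0.95). Foxo3 had no neighbour above Cdk13 (r = 0.92), the lowest value among the members. Ddit4 was nearest to Phc3 (r = 0.97), Sesn3 to Pygm (r = 0.97), Pik3ip1 to Sirt5 (r = 0.97), Bcl6 to Tcea3 (r = 0.98) and Ccng2 to Chic1 (r = 0.98).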

How the data were processed

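RNA of sorted and unsorted marrow was sequenced from NEBNext Ultra II Directional libraries, per the labels' protocols. Salmon and FastQC 0.11.5 with build mm10 are named in the submitters' processing notes, and the Salmon version is not given in the sources used here. The authors deposited estimated counts per gene and library, already whole numbers, in 1 long table with 47712 Ensembl genes and 8620 UCSC transcripts. Lines repeated word for word were used once. The members and gene lists were chosen with earlier results of these data known.

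Counts were scaled by TMM over all 57 libraries (CPM). Treated and control libraries were compared within each population, and controls of each sorted population with the mean of the other 5, with edgeR 4.0.16 (R 4.3.3, filterByExpr, robust quasi-likelihood, Benjamini-Hochberg adjustment at 0.05) and a batch term where batches differed. The SE of an edgeR log2 difference is its absolute value divided by the square root of its quasi-likelihood F statistic. The fits were run on simulated data with known folds. The simulated counts had the same fixed spread for every gene and no batch steps, unlike these data. DESeq2 1.42.0 and limma 3.58.1 were alternatives, besides other scalings, no filter, and leaving out each library. Libraries are separate mouse pools by their labels, and pool numbers never pair a control with a treated library. They mark the same mice in several populations (within-pool correlation 0.10), so a replicate block by pool was an alternative for population comparisons. Named list genes are the called genes with the smallest p per list and direction, or, where none was called, the gene with the smallest p. Gene positions and exon lengths came from the GENCODE annotation of GRCm38. Castor1 was the 1 listed gene not matched. Some genes that the rule picks are not reported here.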

Additional observations from a re-analysis of the deposited data

Results flagged for a closer look

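In 8 of 120 groups of 4 or 6 libraries, 1 library lay further from its neighbours than the group's spread allows at the 95% level, where chance alone gives about 1 in 20. 3 of these fell in treated MEP: Arrdc4 had 18.02 CPM in pool 4 (others 8.982 to 9.923), Ccng2 38.21 in the same library (others 20.45 to 23.34), and Arrdc3 21.47 in pool 8 (others 19.21 to 19.48). 2 fell in the only batch C library of unsorted marrow, pool 15, with Arrdc3 at 95.11 CPM (others 30.88 to 34.45) and Foxo1 at 63.71 (others 23.83 to 28.39). That library also had the highest red cell sum of unsorted marrow (110700 CPM, median 12600) and the lowest neutrophil sum (51170, others up to 105300). Its lymphoid progenitor sum was 954.5 (others 400.2 to 544.6) and its stromal sum 731.9 (others 174.5 to 620.4). The part of these in its levels was not tested. The others were Txnip at 564 CPM in Myeloid control pool 13 (others 253.4 to 358.2), Foxo1 at 31.11 in HSC treated pool 4 (others 17.05 to 19.34), and Sesn3 at 31 in Myeloid treated pool 16 (others 1.84 to 9.418, on 400 counts).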

How the results depend on the processing

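Txnip in MSC kept a positive log2 difference under all 17 alternatives run, from 0.79 to 1.03. Arrdc3, Sesn3, Pik3ip1, Bcl6 and Ccng2 also stayed positive there, and Foxo1 and Foxo3 negative. In HSC, Foxo3, Ddit4, Sesn3, Arrdc4 and Pik3ip1 kept a negative difference under all 12. The alternatives reuse all or most of the same libraries, so nothing is read from a kept sign. The count of members called in MSC under anti-PAPP-A was 0 by the edgeR fit and 1 (Txnip) with DESeq2, with no low-count filter and in a joint fit of all sorted libraries, where 43, 55 and 649 of all genes were called in place of 5. The joint fit also called 1 listed gene in MSC and DESeq2 1 in MEP (Klf2). Over all genes, omitting the filter gave 181 calls in HSC in place of 1 and 112 in Myeloid cells in place of 0, and DESeq2 12 in MEP in place of 0. Leaving out 1 library gave 1 to 149 in HSC and 0 to 4 in MSC, and 0 members. With the replicate block, the test of a treatment difference among populations called 1 member in place of 0, and CLP listed genes went from 16 to 8 (861 of all genes in place of 2159). The block moved no other count of members or listed genes by over 1.5 times. Treated and control libraries share no pool, so no paired analysis of treatment was possible. Without a batch term across populations, an alternative chosen after seeing the data, MEP members went from 8 to 5, CLP listed genes from 16 to 26, and Foxo3 in Myeloid cells reversed to 0.17. Leaving out 1 pool gave 3 to 5 members called in CLP (5 with all), 5 to 9 in GMP (8), 11 to 33 listed genes in HSC (29), 9 to 19 in CLP (16) and 16 to 43 in GMP (34), lowest without pools 3 or 5. The order of the 7 populations by mean level changed for 5 members with total-count scaling (Txnip, Arrdc3, Foxo3, Ddit4 and Ccng2) and for 6 with DESeq2 size factors (Arrdc3, Arrdc4, Foxo1, Sesn3, Pik3ip1 and Bcl6). Depth limits the HSC treated library with 107412 counts, where Ddit4 rests on 1 count. Treated HSC pools 2 and 4, at 4023940 and 2634243 counts, were also below every control HSC library.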
